A study of Caenorhabditis elegans with 4 samples.

Results

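Chromosome II carried 862 of the 5338 places where binding of the transcription factor ELT-3 was called in fed first-stage (L1) larvae of the nematode Caenorhabditis elegans. These 862 regions are all peaks that the deposited list assigns to chromosome II, without any selection on strength, width or position. The other 4476 peaks, on chromosomes I, III, IV, V and X, serve as the comparison. The 4 libraries were made from hermaphrodites of strain OP75, raised at 20 °C on bacteria and fixed with 2% formaldehyde. The strain has the unc-119 (ed3) mutation on chromosome III. Its integrated transgene wgIs75 joins elt-3::TY1::EGFP::FLAG, a tagged copy of the factor, to unc-119 (+) as a rescuing gene. For each of 2 replicates, 1 library came from chromatin precipitated with a goat antiserum against GFP (ELT-3 ChIP) and 1 from input DNA of the same strain. The transgene was brought in by particle bombardment, all libraries share it, and the genotype label lists no change of the endogenous elt-3 gene. All libraries come from whole larvae, and the tissue in which a region was bound cannot be told apart from the list.

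ELT-3 is a GATA-type zinc finger protein of the hypodermis, the epidermal layer that secretes the worm's cuticle. GATA factors bind short DNA sites with the core letters GATA. Autosomes of C. elegans have a central part and 2 outer arms that differ in meiotic recombination, repeat content and the kinds of genes they hold, with recombination rarer in the central part. This is background on the chromosomes. Gene positions were not used here, so no peak below is assigned to a gene, and the part of gene layout in the density of peaks was not tested. No DNA sequence is shown either, because positions are given in the WormBase WS180 build and no genome of that build was used.

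Each peak is listed with its position and a q-value, an adjusted p-value that is smaller where the enrichment of ChIP over input is better supported. It holds no value per library. The spread between replicates and the read depth behind a peak are therefore unknown, and no test of a difference is given. The intervals below are exact 95% binomial or Poisson intervals, or order-statistic intervals for medians. They cover counting error over the peaks of this list only, and neighbouring peaks are not independent. Statements that chromosome II lay above or below the other chromosomes are descriptions of this list.

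As a whole, chromosome II was an average chromosome for ELT-3. It held 16.1% of the peaks on 15.2% of the summed chromosome length, with 56.5 peaks per Mb (interval 52.8 to 60.4) against 52.7 per Mb (51.2 to 54.3) on the other 5 together. The other chromosomes ran from 41.7 per Mb on V to 63.1 per Mb on I. Peaks on II covered 490.4 kb, or 3.21% of its 15.3 Mb, where length runs from position 1 to the end of the last peak. The median width was 416.5 bp (404 to 433), between the 401 bp of I and the 503.5 bp of X, and the central 50% of widths lay between 326.5 and 620 bp. The median q-value was 9.37e-06. Of the 862 peaks, 73 had a q-value below 1e-20, or 8.47% (6.70% to 10.5%), beside 9.25% in the whole list, so the share of strong peaks lay near the background. A q-value below 1e-05 was held by 50.6% of the peaks on II and by 51.2% of the whole list. Across the 862 peaks, wider peaks had smaller q-values (Spearman's coefficient 0.569 for width with the negative log10 q-value, n = 862 peaks of 1 list).

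The peaks were spread unevenly along this average chromosome, and the unevenness was one-sided. In 10 equal parts of 1.53 Mb each, counted from the left end (position 1), the numbers of peaks were 50, 33, 48, 110, 118, 117, 107, 108, 89 and 82. The first 3 parts were sparse, the fourth to the eighth were full and nearly level, and the last 2 declined only moderately. Density rose from 31.4 per Mb (23.2 to 41.7) in the third part to 72.1 per Mb (59.2 to 86.8) in the fourth. It reached 77.3 per Mb in part 5 and was still 53.7 per Mb (42.7 to 66.7) in the tenth. The second part, with 21.6 per Mb (14.9 to 30.4), was the sparsest of II. Only 1 of the 60 equal parts of all 6 chromosomes was sparser, the ninth of V with 33 peaks on a longer stretch and 15.8 per Mb.

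**Figure D1:**
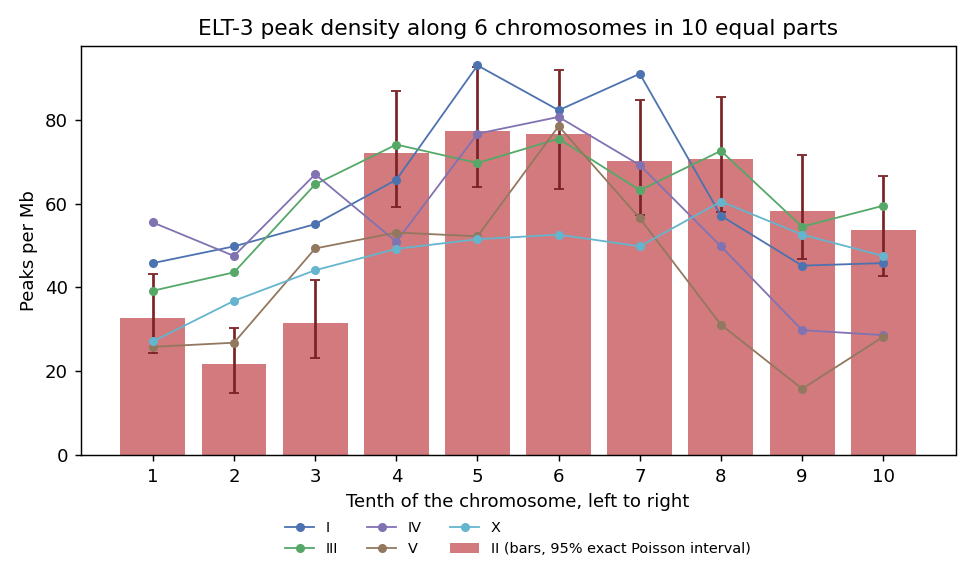
Peaks per Mb in 10 equal parts of each chromosome, numbered from the left end. Bars show chromosome II with exact 95% Poisson intervals and lines show the other 5 chromosomes. On II the first 3 parts lie between 21.6 and 32.8 per Mb and the next 5 between 70.1 and 77.3 per Mb.

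The fullest part of II held 3.58 times as many peaks as the emptiest (2.41 to 5.43). The same ratio was 4.97 on V, 2.82 on IV, 2.23 on X, 2.06 on I and 1.93 on III. By this measure V was above II, and its low parts lay at both ends. In 20 equal parts II had the highest ratio of the 6 chromosomes, 10.5 against at most 8.45. The interval of this ratio on II was wide (4.56 to 29.7) and included the 8.45. In 10 parts the interval of the ratio on II overlapped those of IV (2.03 to 3.98), V (3.40 to 7.46), I (1.53 to 2.79), III (1.37 to 2.73) and X (1.57 to 3.20).

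Windows of 1 Mb showed low counts over the first 4 Mb of chromosome II. The first 4 windows held 28, 26, 26 and 25 peaks. From the fifth window on, the numbers were 64, 67, 74, 67, 83, 80, 60, 80, 50, 58 and 60. The counts did not overlap, since no window of the first 4 held more than 28 peaks and no later complete window held fewer than 50. The remaining 266.8 kb at the right end held 14 peaks. The first 4 Mb made up 26.2% of the length and carried 105 peaks, or 12.2% of all on II. Density beyond 4 Mb was 67.2 per Mb, which is 2.56 times that of the first 4 Mb. The evenness of the first 4 counts depends on where the windows start. When they were shifted by 0.5 Mb the counts from the left were 27, 14, 29, 35 and 80, and the later ones ran from 54 to 86. The ratio of the fullest to the emptiest window was 3.32 (2.10 to 5.42) from position 1 and 6.14 (3.47 to 11.7) after the shift. The largest ratio of the other chromosomes was 6.92 from position 1 and 6.69 after the shift. In windows of 0.5 Mb the first 4 Mb held 21, 7, 20, 6, 8, 18, 11 and 14 peaks, followed by 21 and 43. The window that began at 4 Mb thus held as many peaks as the first window, and the counts did not separate at 4 Mb.

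Low windows of this kind were not limited to chromosome II. Of the 97 complete 1 Mb windows of the 6 chromosomes, 14 held 28 peaks or fewer, and 4 of these were the first 4 of II. The longest run of neighbouring windows with at most 30 peaks each was 4 on II (0 to 4 Mb, 105 peaks) and also 4 on V (16 to 20 Mb, 86 peaks). It was 2 on IV (15 to 17 Mb), 2 on X (0 to 2 Mb), and no such window was found on I or III. The first 4 Mb of V were as sparse as those of II, with 107 peaks. The first 4 Mb of the other chromosomes held between 131 peaks on X and 203 on I. The last 4 Mb of II held 241 peaks, close to the 245 of III and above the 187 of I, 200 of X, 127 of IV and 86 of V.

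Taking the outer 30% on each side and the middle 40% as 3 regions, chromosome II had 131 peaks on the left, 452 in the middle and 279 on the right. The left 30% thus held 15.2% of its peaks (12.9% to 17.8%), the lowest share of the 12 outer regions of the 6 chromosomes. On the other chromosomes the left shares ran from 22.9% on X to 30.6% on IV. The nearest share was that of the right region of V, 18.0% (15.5% to 20.7%), and these intervals overlapped. The right 30% of II held 32.4% (29.3% to 35.6%), above the 18.0% of V, 19.5% of IV, 23.5% of I and 30.3% of III and below the 34.1% of X. As a density the left region of II had 28.6 peaks per Mb (23.9 to 33.9). That was the second lowest of the 12, after the right region of V with 25.0 per Mb (21.3 to 29.3), and these intervals overlapped. The interval of the left region of V, at 34.0 per Mb (29.6 to 38.9), overlapped it as well. At 60.9 per Mb (54.0 to 68.5) the right region of II was the second highest, after that of III with 62.2 per Mb (54.8 to 70.3).

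**Figure D2:**
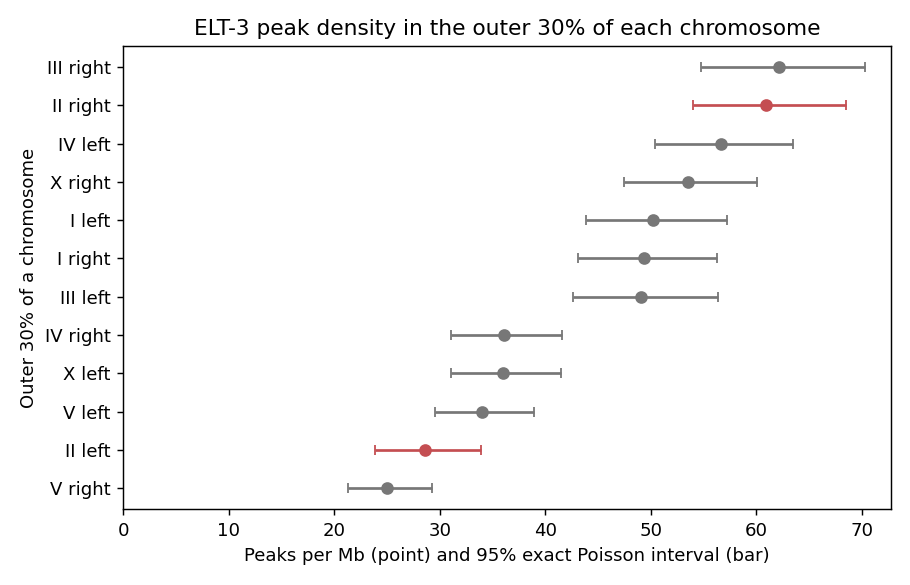
Density of peaks in the left and right outer 30% of the 6 chromosomes, with exact 95% Poisson intervals, ordered by density. The regions of II (red) stand at opposite ends of the order, with 28.6 per Mb on the left and 60.9 per Mb on the right.

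The right region of II held 2.13 times as many peaks as the left (1.72 to 2.64), on the same length. This ratio was 1.49 on X (1.23 to 1.80), 1.27 on III (1.05 to 1.53), 0.982 on I, 0.737 on V and 0.636 on IV (0.527 to 0.766). Against its own middle, which had 74.0 per Mb (67.3 to 81.2), the left region of II was 0.386 times as dense and the right region 0.823 times. The middle of II itself lay within the range of the other chromosomes, from 50.7 per Mb on X to 83.0 per Mb on I.

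The sparse left region differed from the rest of II in the number of its peaks more than in their kind. Median width was 425 bp on the left (380 to 464), 425 bp in the middle (401 to 450) and 408 bp on the right (386 to 434). A q-value below 1e-05 was held by 51.1% of the left peaks, 49.8% of the middle peaks and 51.6% of the right peaks. For a q-value below 1e-10, held by 25.1% of the whole list, the shares were 31.3% (23.5% to 40.0%), 24.8% and 24.7%. Peaks below 1e-20 numbered 9, 41 and 23, or 6.87% (3.19% to 12.6%), 9.07% (6.59% to 12.1%) and 8.24% (5.30% to 12.1%). The extremes rest on few peaks. Of the left peaks 2 were below 1e-30, a bound passed by 4.33% of the whole list, against 26 in the middle and 7 on the right. In the left region 1 peak was wider than 2 kb, or 0.763% (0.0193% to 4.18%), beside 4.20% (2.55% to 6.49%) in the middle, 1.79% (0.584% to 4.13%) on the right and 2.30% of the whole list. Other outer regions had as few such peaks, with 0 of 203 in the left region of III and 1 of 223 in the right region of I. All intervals of the left region overlapped those of the middle and right in width and in the shares below 1e-05, 1e-10 and 1e-20. Those below 1e-30, 1.53% (0.185% to 5.41%) on the left and 5.75% (3.79% to 8.31%) in the middle, overlapped too.

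The left share of II was the lowest of the 6 chromosomes in 3 of 4 classes of strength. Among peaks of II with a q-value of 1e-05 or weaker, 15.0% of 426 lay in the left 30%. For q-values from 1e-10 to 1e-05 the share was 12.1% of 214, from 1e-20 to 1e-10 it was 21.5% of 149, and below 1e-20 it was 12.3% of 73. On the other chromosomes the left shares ran from 21.3% on X to 33.2% on IV in the weakest class and from 20.6% on I to 32.1% on IV in the next. In the weakest class the interval of II (11.8% to 18.8%) overlapped that of X (17.3% to 25.7%). In the next class the interval of II (8.09% to 17.3%) overlapped those of I (15.9% to 26.0%) and III (16.9% to 28.1%). In the class from 1e-20 to 1e-10 the left share of II (15.2% to 28.9%) was the second lowest, between the 20.3% of V and the 21.7% of III. The highest was 28.6% on I, and the interval of II overlapped those of all other chromosomes. Below 1e-20 the others ran from 16.5% on I (9.06% to 26.5%) upward, and the interval of II (5.80% to 22.1%) overlapped those of all other chromosomes.

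Long distances between peaks were more frequent in the left region than in the rest of II. From 1 midpoint to the next on the right, the median distance was 15.5 kb in the left region (7.89 to 24.4), 7.17 kb in the middle (6.14 to 8.46) and 6.97 kb on the right (5.90 to 8.57). The interval of the left median overlapped those of the middle and the right. Medians of the 11 other outer regions ran from 6.97 kb to 18.0 kb, the latter in the right region of V. The left region of X had a median of 14324 bp. For II as a whole the median distance was 7.48 kb (6.61 to 8.56), among medians from 7.06 kb on IV to 9.73 kb on X. The lowest 25% of distances were short everywhere on II, at or below 2.76 kb on the left, 2.27 kb in the middle and 2.02 kb on the right. At the other end, the largest 10% of distances began at 97.3 kb on the left, 35.8 kb in the middle and 43.9 kb on the right. Distances over 100 kb made up 8.40% of those in the left region and 0.221% of those in the middle. Distances of at most 1000 bp made up 3.05% on the left, 9.07% in the middle and 7.55% on the right.

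**Figure D3:**
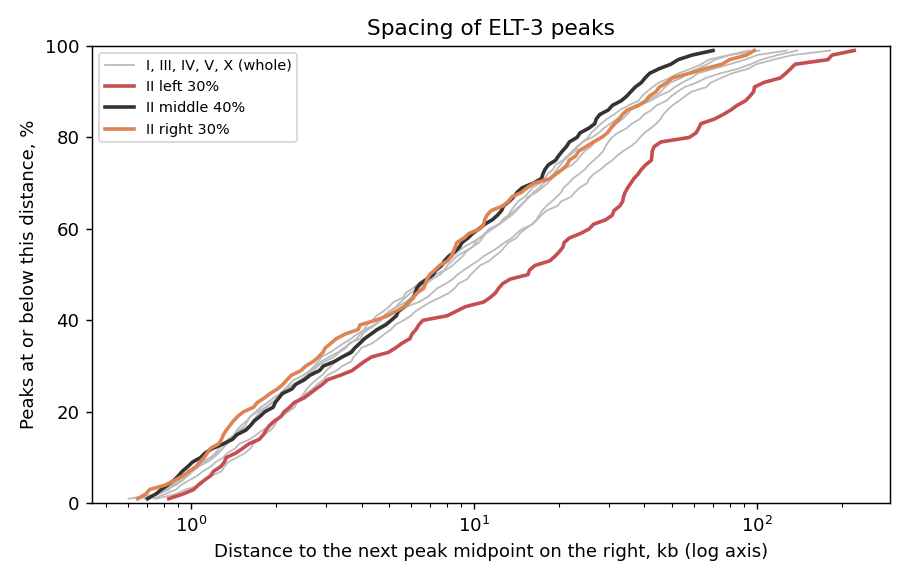
Cumulative distribution (percentiles 1 to 99) of the distance from each peak to the next midpoint on its right, on a log axis, for 3 regions of chromosome II and for the other chromosomes as wholes (grey). The curve of the left 30% of II starts beside the others and then runs to the right of them, with a median of 15.5 kb against 7.17 kb in the middle 40%.

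Long empty stretches were concentrated at the left. Chromosome II had 15 gaps of more than 100 kb between neighbouring peaks, of which 11 were centred in the left 30%, 1 in the middle 40% and 3 in the right 30%. The 11 gaps on the left added up to 1850.9 kb, or 40.4% of that region. This share was 44.8% in the right region of V, 37.1% in the left region of X, 34.2% in both the left region of V and the right region of IV, and between 5.98% and 19.7% in the other outer regions. Steps of 100 kb without any peak midpoint numbered 9 of 40 in the first 4 Mb and 2 of 112 beyond.

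The longest gap of chromosome II ran for 315.7 kb, from 1504035 to 1819685, and was the fifth longest of the whole list. It was bordered on the left by a peak at 1503671 to 1504034 (364 bp, q-value 1.33e-17) and on the right by one at 1819686 to 1820604 (919 bp, q-value 3.61e-20). Both bordering peaks ranked among the stronger ones of II, at 108 and 78 of 862. The next gap, 235.4 kb from 2565328 to 2800777, ended at the strongest peak of the second part, at 2800778 to 2801257 (480 bp, q-value 5.72e-34, rank 27). The third gap, of 184.2 kb from 2059672 to 2243912, lay between weak peaks, one of 716 bp on its left (2058956 to 2059671, q-value 0.00641) and one of 15 bp on its right (2243913 to 2243927, q-value 0.00322). That 15 bp peak was followed by a further gap of 137.3 kb, so without it the empty stretch would span both. The fifth longest gap, 177.1 kb from 723623 to 900723, ended at the strongest peak of the left region. Outside the left region the longest gap was 150.0 kb, from 13297578 to 13447549.

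Peaks standing alone were accordingly more frequent on the left. No other midpoint lay within 20 kb of 27 of the 131 left peaks, or 20.6% (14.0% to 28.6%), of 6.64% (4.52% to 9.34%) of the middle peaks and of 7.89% (5.01% to 11.7%) of the right peaks. The right region of V reached 26.8% by this measure and was the only 1 of the 11 other outer regions above the left region of II. Close neighbours were nevertheless present there. Another midpoint within 2000 bp was found for 32.8% of the left peaks (24.9% to 41.6%), 38.1% of the middle peaks (33.6% to 42.7%) and 41.9% of the right peaks (36.1% to 48.0%). Within 1000 bp the shares were 6.11% (2.67% to 11.7%) on the left, 16.6% (13.3% to 20.3%) in the middle and 14.3% (10.4% to 19.0%) on the right, and the interval of the left lay below that of the middle and overlapped that of the right.

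Grouped peaks were also found in the second part, the sparsest. Of its 33 peaks 19 had a neighbour within 2000 bp, or 57.6% (39.2% to 74.5%), an interval that overlapped those of part 9 (52.8%, 41.9% to 63.5%) and part 5 (50%), and 8 of them formed 2 runs of 4. Those runs lay at 2800778 to 2806088 (5.31 kb, strongest q-value 5.72e-34) and at 2854759 to 2859184 (4.43 kb, strongest q-value 5.59e-17). The median q-value of this part was 3.54e-08, and 5 of its 33 peaks were below 1e-20, or 15.2% (5.11% to 31.9%). That interval included the 9.25% of the whole list and overlapped those of parts 1 and 3. In the first part the median q-value was 7.41e-05, with 2 of 50 peaks below 1e-20 (4%, 0.488% to 13.7%). In the third it was 4.15e-06, with 2 of 48 (4.17%, 0.509% to 14.3%). The part with the fewest peaks thus had the smallest median q-value of the 10. With 33 peaks that median is loosely fixed, since the negative log10 q-value had a median of 7.45 there (3.00 to 13.5) beside 5.03 (4.67 to 5.43) for all of II. At the far right, the tenth part held 82 peaks with 1 of them below 1e-20 (1.22%, 0.0309% to 6.61%), and its median q-value was 3.51e-05.

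On chromosome II as a whole, 332 peaks or 38.5% (35.3% to 41.9%) had a neighbour within 2000 bp, inside the range of 31.4% on V to 39.5% on III. Within 1000 bp the share was 14.3% (12.0% to 16.8%), above the 13.1% of III and the 6.00% of X, and within 5000 bp it was 59.4% (56.0% to 62.7%), below the 60.7% of X and the 65.2% of IV. Chains of midpoints no more than 2000 bp apart grouped the 862 peaks into 667 places, namely 530 single peaks, 95 pairs and 42 runs of 3 or more. The longest run held 5 peaks in 4.84 kb, at 6615619 to 6620458, with a strongest q-value of 1.71e-11. Runs of 6, 8 and 7 peaks were the longest of I, IV and X. Neighbouring peaks of II never overlapped and were at least 200 bp apart. Whether closer ones were merged or left out of the list is unknown.

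The 9 peaks below 1e-20 in the left 30% were spread over that region, apart from 1 pair. The strongest of them, at 900724 to 901244, was 521 bp wide with a q-value of 1.40e-46, ranked 11 on II and 88 in the whole list, and had its nearest neighbour 61.9 kb away. After it came the pair at 2800778 to 2801257 and at 2802173 to 2803332 (1160 bp, q-value 3.21e-27) and a peak of 2307 bp at 319384 to 321690 (q-value 1.12e-25), the only one of the region wider than 2 kb. The strongest peak of the third part lay at 3241890 to 3242352 (463 bp, q-value 1.41e-24). The other 4 had q-values from 2.69e-24 to 4.19e-21. None of the 9 matched the strongest peaks of the middle, where the 2 leading peaks of the chromosome lay.

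The strongest place of chromosome II was a single broad region at 7341643 to 7349357, near the centre at 48.1% of the length. It was 7715 bp wide, had a q-value of 2.01e-179 and ranked sixth in the whole list. Within 50 kb of its centre 5 other peaks were called. Peaks of 900 bp and 613 bp lay 7.84 and 6.36 kb to the left (q-values 1.92e-20 and 4.64e-20), a weak peak of 435 bp lay 7.23 kb to the right (q-value 0.00153), and the next peaks on either side were 43.7 and 49.9 kb from the centre.

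The second strongest peak, at 8818158 to 8821617 (3460 bp, q-value 3.52e-174, rank 7 in the whole list), stood among other strong ones. On its left were a peak at 8811729 to 8814737 (3009 bp, q-value 1.54e-81, rank 3 on II) and one at 8817152 to 8817904 (753 bp, q-value 1.21e-13). On its right was a peak at 8822187 to 8823471 (1285 bp, q-value 1.69e-50, rank 8). A second group began 83.4 kb to the left of the end of this last peak. It consisted of 3 neighbouring peaks with q-values of 2.35e-33 (8740101 to 8740789), 4.53e-41 (8741225 to 8742779) and 6.29e-77 (8742980 to 8747760, 4781 bp, rank 4). Together these groups put 6 peaks below 1e-20 into 83.4 kb. This was the largest number that any 100 kb of II held, compared with 7 on V, 6 on I, 5 on III, 5 on IV and 3 on X. The stretch therefore held 4 of the 8 strongest peaks of chromosome II.

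**Figure D4:**
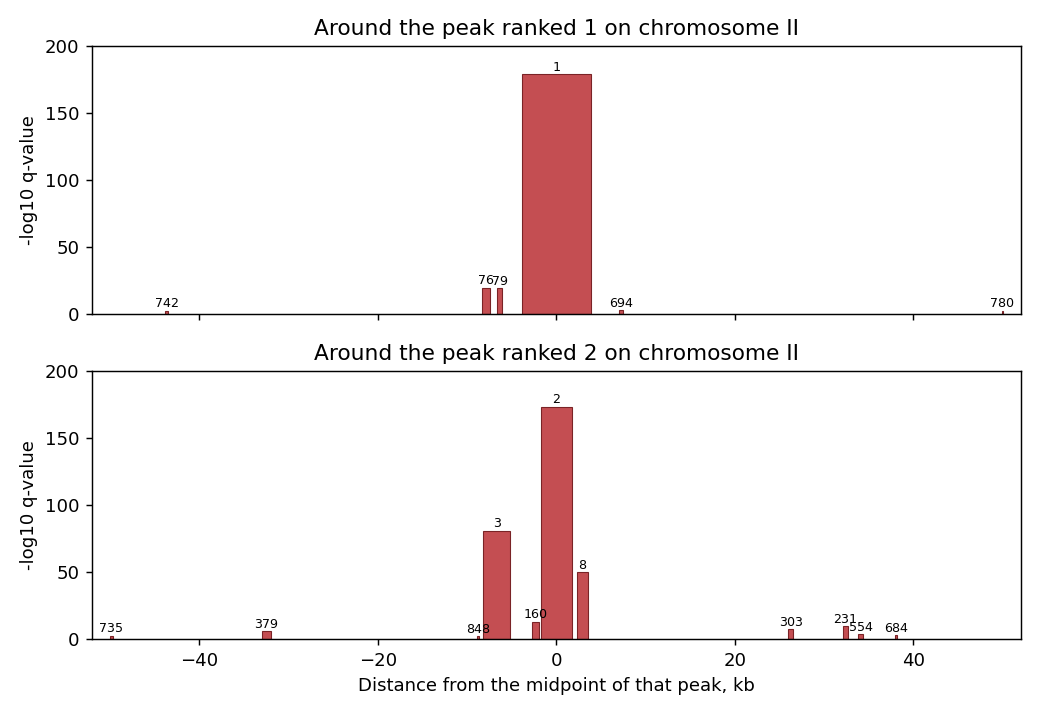
Peaks within 50 kb of the 2 strongest peaks of chromosome II, drawn to scale along the chromosome as distance from the centre of that peak, with the negative log10 q-value as height. Numbers give the rank on II. The strongest neighbour of the peak ranked 1 has rank 76, whereas the peak ranked 2 lies between those ranked 3 and 8.

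The other 5 of the 10 strongest peaks lay apart from these places, and their widths ran from 497 to 2471 bp. The peak ranked 5 lay on the right at 12052557 to 12055027 (2471 bp, q-value 2.03e-71). Rank 6 was held by a peak of 836 bp at 5605344 to 5606179 (q-value 4.27e-66), the first of a run of 4 peaks that ended at 5609038. The peak ranked 7, at 11611303 to 11611799, was 497 bp wide with a q-value of 2.69e-53, and rank 9 was held by a peak of 783 bp at 6842423 to 6843205 (q-value 2.51e-50). Rank 10 fell to a peak at 8015103 to 8017410 (2308 bp, q-value 6.99e-48). Of the 10 strongest peaks, 8 lay in the middle 40%, 2 in the right 30% and 0 in the left 30%, and 6 were wider than 2 kb. Between the peaks ranked 2 and 3 there was a wide step, with negative log10 q-values of 173.5 and 80.8, a ratio of 2.15.

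Outside these places, the strongest peak of the seventh part was a 557 bp peak at 9343841 to 9344397 (q-value 8.49e-43). In the ninth part it was a peak of 1815 bp at 13460571 to 13462385 (q-value 4.43e-37). The tenth part had its strongest peak, the only one below 1e-20, at 14597636 to 14600204 (2569 bp, q-value 5.00e-46, rank 12). To the right of it another 40 peaks followed up to the last peak of the chromosome, at 15265934 to 15266763 (830 bp, q-value 1.18e-05), and none of them was below 1e-20. The first peak of the chromosome, at 12458 to 12932 (475 bp), was weak, with a q-value of 0.00365.

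**Figure D5:**
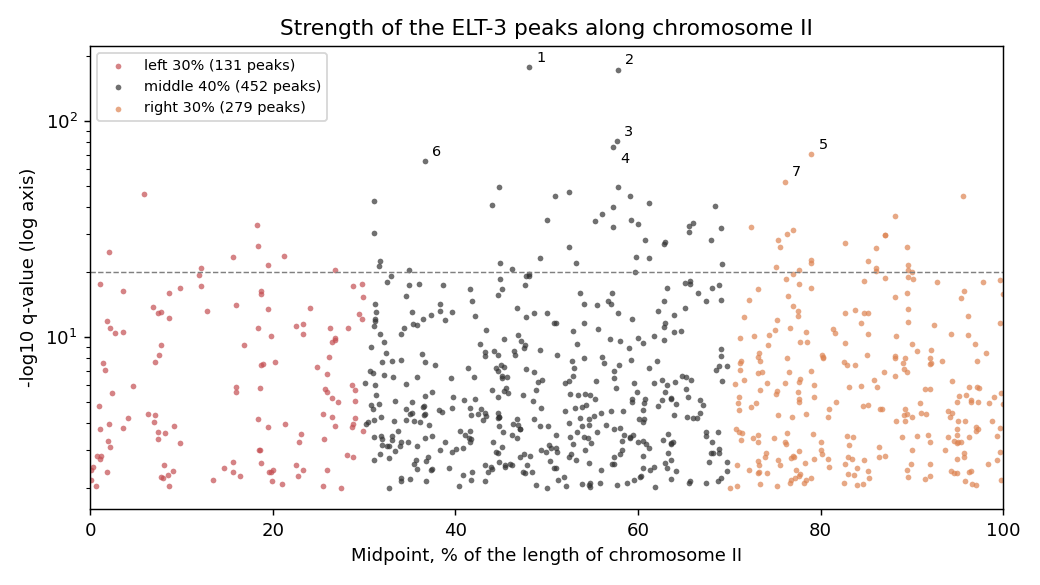
Negative log10 of the q-value (log axis) of each of the 862 peaks against its position in percent of the length of chromosome II, coloured by region, with the 7 strongest numbered and a dashed line at a q-value of 1e-20. The left 30% has few points, with heights up to 45.9, against 70.7 in the right 30%. The 2 peaks above 170 lie in the middle 40%.

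Peaks below 1e-20 followed the general distribution only loosely. Their numbers in the 10 parts were 2, 5, 2, 6, 7, 15, 13, 11, 11 and 1, so the sixth to the ninth part held most of them. Within each part their shares were 4%, 15.2%, 4.17%, 5.45%, 5.93%, 12.8%, 12.1%, 10.2%, 12.4% and 1.22%, beside 8.47% for all of II. Only the interval of the tenth part (0.0309% to 6.61%) left out that 8.47%. Parts 4 and 5 each held fewer of this class than any of the sixth to ninth parts. Even so, each had more peaks of any strength than part 7, 8 or 9. The longest stretch of II between neighbouring peaks of this class was 1106.8 kb, and it lay in a full part of the chromosome, between the peak at 5605344 and the one that ends at 6712817. The median distance between them was 113.6 kb (60.0 to 173.2). Another peak lay within 2000 bp of 36 of the 73, or 49.3%, and of 37.5% of the other 789 peaks of II. No interval was computed for these shares, and the first rests on 73 peaks only. The median width of the 73 was 836 bp against 402 bp for the others. The peaks next to the bound were one at 13149868 to 13150301 (q-value 6.82e-21) inside it and one at 13737622 to 13738285 (q-value 1.01e-20) outside it.

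Strength and width did not always go together. The third widest peak of II, at 10541904 to 10545442, measured 3539 bp and had a q-value of 1.33e-15, rank 129 of 862. Conversely, 3 of the 10 strongest peaks were under 1 kb wide, at 836, 783 and 497 bp. Very narrow peaks were rare on II. Widths of 100 bp or less were listed for 11 peaks, or 1.28%, compared with 0.719% on X and 2.12% to 4.74% on the other chromosomes. The strongest of these 11 had a q-value of 8.19e-05, and 1 of them had a neighbour within 2000 bp. The narrowest, of 1 bp, lay at 5712730 with a q-value of 0.00353.

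The 20 kb stretch with the most peaks on chromosome II was on the right, at 13663226 to 13681397. Its 11 peaks took up 6.38 kb of 18.2 kb. Its strongest peak was the second from the left, at 13664190 to 13664778 (589 bp, q-value 5.33e-27, rank 45). The last, at 13680943 to 13681397 (455 bp), had a q-value of 2.71e-22, and the peak at 13675093 to 13675865 (773 bp) had 3.63e-21. Next in strength came 3 peaks with q-values of 7.29e-20, 7.58e-17 and 3.08e-14. The weakest, at 13672035 to 13672259 (225 bp), had a q-value of 0.00551. By number this stretch was second to one of 14 peaks on IV, and the fullest such stretches of I, III, V and X held 10, 9, 9 and 9. The fullest step of 100 kb, from 6800001 to 6900000, lay in the middle and held 20 peaks, among them the peak ranked 9.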

How the data were processed

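Chromatin immunoprecipitation and sequencing was done on 4 libraries (2 ELT-3 ChIP, 2 input). The authors deposited 1 combined list of peaks giving the position and the q-value (adjusted p-value) of each peak. Per the file headers the positions, deposited in bp, belong to WormBase WS180, and each line names PeakSeq as its source. The aligner, the filters, the versions and how the replicates were combined are not given in the sources used here. Score column and attribute held the same q-value (0 peaks differed by more than a relative 1e-12).

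Width was end minus start plus 1, position the midpoint, and length the last peak end. Exact intervals are at 95%. Values were computed with Python 3.11.15, numpy 2.4.6, pandas 2.3.3 and scipy 1.17.1, and the functions were checked on simulated lists. The named peaks are the 10 strongest, the strongest of each part, the 3 widest, the first and last, those of the fullest 20 kb, those beside the 3 longest gaps and those beside a bound. Others, such as the strong peaks of the left region, were chosen after their values were seen. The members, rules and bounds were chosen with earlier results of these data known. The alternatives are given in the closing section.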

Additional observations from a re-analysis of the deposited data

How the results depend on the processing

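No paired analysis was possible because values per library are lacking, and leaving out a replicate was likewise impossible. The share of chromosome II peaks in the left 30%, 15.2%, was the lowest of the 6 chromosomes in each of 8 settings, and lay between 15.2% and 16.0% in the stronger 50% of the list, below 1e-05, after merging peaks within 500 bp, with length counted from the first peak and by peak start. With the outer 20% or the outer 33.3%, which change the length counted, the left share was 9.63% or 20.3% and the right share 19.8% or 36.0%. The stronger 50% of the list, peaks below 1e-05 and merging leave fewer peaks, so density was 27.8, 28.6 and 51.2 per Mb, the median distance 19715.5, 18759 and 8933 bp and the share with a neighbour within 2000 bp 28.9%, 28.7% and 25.1%. In the stronger 50% and below 1e-05 the median width was 517 and 512.5 bp and the share below 1e-20 was 17.2% and 16.7%. The neighbour share was 14.3% within 1000 bp (highest of 6 chromosomes) and 59.4% within 5000 bp (lowest of 6). At both distances its interval overlapped those of other chromosomes. By peak start the neighbour share was 39.8%, also the highest, and after merging it was the second lowest. Its rank thus moved with the distance and with how peaks and positions were defined. The share of strong peaks was 25.8% for a bound of 1e-10 and 4.06% for 1e-30. The ratio of the fullest to the emptiest part rose from 3.58 to 10.5 (4.56 to 29.7) with 20 parts. There II passed V and was the highest of 6, but the interval included the 8.45 of the next chromosome. The ratio for 1 Mb windows, 3.32, was 6.14 (3.47 to 11.7) with windows shifted by 0.5 Mb. With windows of 0.5 Mb it was 7.83 (3.34 to 22.4). In none of these settings was II the highest, since the largest ratio of the other chromosomes was 6.92, 6.69 and 56. The 56 came from V and rests on a window with only 1 peak, beside 56 peaks in its fullest window. The read depth is unknown, as is the weakest binding that could have been listed.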
